A study of Schizosaccharomyces pombe with 10 samples.

Results

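The messages of 10 genes for ribosomal RNA synthesis and modification were followed through 4 DNA damage treatments of fission yeast (Schizosaccharomyces pombe). They were taken by name, as 10 of the 6661 features in the count table: fib1 (SPBC2D10.10c), nop56 (SPBC646.10c) and nop58 (SPAC23G3.06) of the box C/D small nucleolar ribonucleoproteins (snoRNPs), cbf5 (SPAC29A4.04c), nhp2 (SPAC1782.10c) and gar1 (SPBC20F10.01) of the box H/ACA snoRNPs, the processing factors gar2 (SPAC140.02) and utp10 (SPBC23E6.04c), and nuc1 (SPBC4C3.05c) and rpa2 (SPBP23A10.07), the large subunits of RNA polymerase I. The choice was made with earlier results of these data known. Strain PT286, which the labels also call wild type with no further genotype, was grown at 30 °C in the rich medium YES, for 16 h before the change of medium. After the change the cells received 20 µM camptothecin, 10 mM hydroxyurea, 0.02% methyl methanesulfonate (MMS) or 5 µg/mL phleomycin and were harvested 8 h later; a last group was untreated. Whether untreated cells also had these 8 h is not stated in the labels. If they did not, a change shared by the 4 agents cannot be told apart from one of culture time. Every group has 2 libraries of total RNA. The labels do not call them separate cultures, so the difference between them may be technical. Each p-value rests on such differences, with the estimate of their spread shared over all tested features. Very small p-values are therefore not the evidence of a gene's own 2 against 2 libraries alone.

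Ribosomal RNA is copied from tandem repeats by RNA polymerase I in the nucleolus, and the precursor is then folded, modified and cut. Box C/D snoRNPs, built on Nop56, Nop58, Snu13 and the methyltransferase fibrillarin, add 2′-O-methyl groups, and box H/ACA snoRNPs, built on the pseudouridine synthase Cbf5 with Gar1, Nhp2 and Nop10, convert uridine to pseudouridine. In yeasts the genes for these proteins belong to the larger ribosome biogenesis programme, whose messages are known to fall under many stresses. Camptothecin traps topoisomerase I on DNA, hydroxyurea blocks ribonucleotide reductase, MMS alkylates bases and phleomycin breaks DNA strands.

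Library totals ran from 37301356 to 48598533 counts, and the 10 genes together took 0.242 to 0.428% of them. Levels are CPM, the count of a gene relative to the library total scaled by TMM factors, and they are not divided by gene length, so levels of different genes are not compared. A CPM is a share of the RNA sequenced: in such bulk samples fewer cells that make a transcript and less of it per cell cannot be told apart. Fold changes are on the log2 scale, agent over untreated, with their standard errors from edgeR's quasi-likelihood test. A gene is said to have risen or fallen where its p, Benjamini-Hochberg adjusted over 5734 tested features, was below 0.05. The 4 comparisons with untreated cells share the same 2 untreated libraries.

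In each comparison 9 of the 10 genes had enough counts to be tested, and most of them were lower after every agent. In camptothecin 8 of the 9 fell and 0 rose, where 35.9% of all tested features fell and 35.2% rose. In hydroxyurea 7 fell and 0 rose, where 38.8% of all features fell and 40.3% rose. In MMS 8 fell and 1 rose, where 40.9% of all features fell and 39.5% rose. In phleomycin also 8 fell and 1 rose, where 40.7% of all features fell and 42.2% rose. With a fold of at least 1.5 added to the threshold, 5 genes fell in camptothecin, 3 in hydroxyurea, 6 in MMS and 6 in phleomycin, where 6.70, 8.20, 14.5 and 17.3% of all features did. The median log2 fold change of the 9 genes was -0.64 in camptothecin, -0.57 in hydroxyurea, -0.74 in MMS and -0.94 in phleomycin, beside medians of 0.0042, 0.023, 0.0018 and 0.021 over all tested features. Treated and untreated libraries did not overlap for 8, 7, 9 and 9 of the 9 genes in that order of agents, and did not overlap for 84.2, 88.8, 89.3 and 90.5% of all features. The 1 gene that rose, in MMS and in phleomycin, was gar2. Counts with the fold of 1.5 were not repeated under other scalings. In hydroxyurea the median of the 9 genes was -0.41 with upper quartile factors, -0.38 with library totals and -0.33 with quantile normalization.

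**Figure D1:**
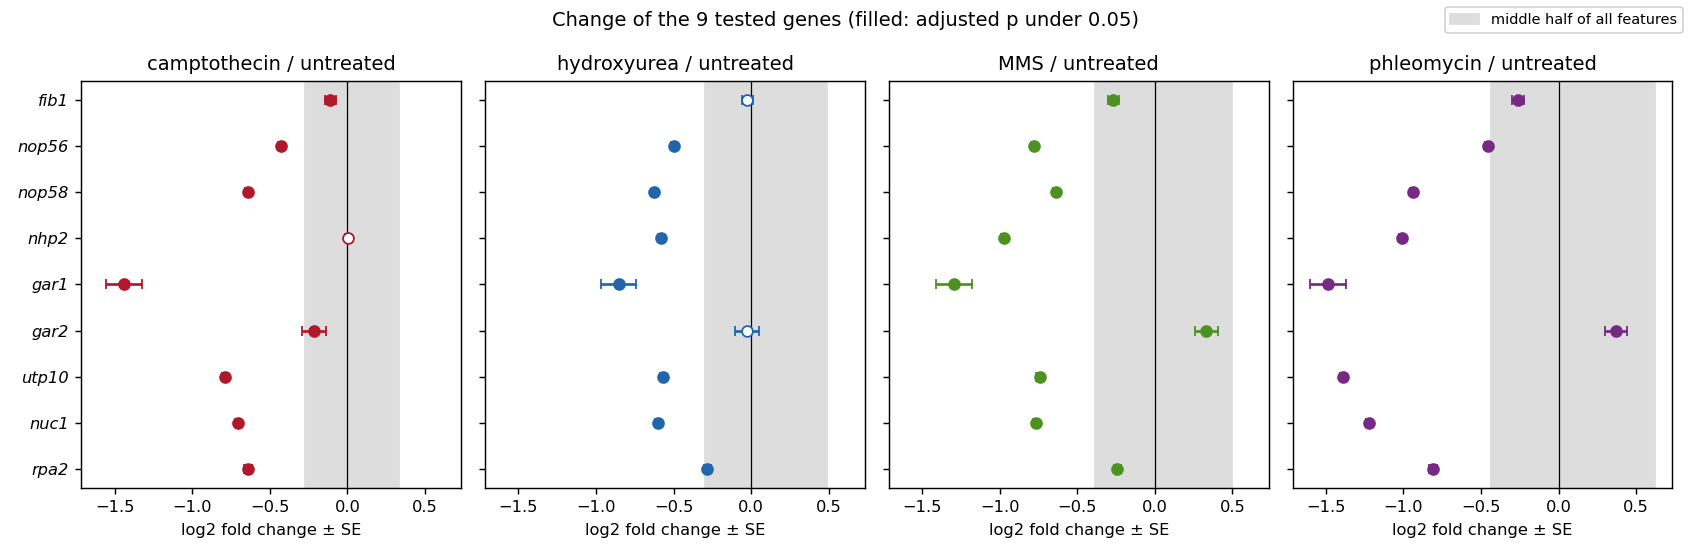
Log2 fold change of each tested gene (rows) in the 4 agents over untreated cells, with bars for the standard error and filled points for an adjusted p below 0.05; the grey band is the interquartile range of all tested features. In phleomycin utp10 (-1.39) and nuc1 (-1.22) lie far left of the band, and gar2 (0.37) is the only gene to the right of 0.

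Of the 10 genes, 3 share much of their span with other listed features, and the strand setting of the counting is not given in the sources used here, so reads of such pairs may not be separated. The whole of cbf5 (100%), 63% of gar1 and 72.2% of gar2 are covered, mainly by a non-coding RNA on the opposite strand in each case. The other 7 genes are covered over less than 5% of their span. Of those 7, 6 fell in camptothecin, 6 in hydroxyurea, 7 in MMS and 7 in phleomycin, and 0 rose. Of all tested features 35.9, 38.8, 40.9 and 40.7% fell in that order. Under other scalings fib1 rose in hydroxyurea, with upper quartile factors (log2 0.14), library totals (0.16) and quantile normalization (0.10). With quantile normalization nhp2 rose in camptothecin (0.034).

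The box C/D genes fell by different amounts. Nop58, which with Nop56 forms the backbone of the particle, had 717 and 718 CPM in camptothecin, 725 and 729 in hydroxyurea, 718 and 721 in MMS and 582 and 588 in phleomycin, against 1113 and 1127 CPM in untreated cells. All 8 treated libraries of nop58 lay below both untreated ones. At this TMM scaling the libraries of the first 3 agents lay close together, with phleomycin below them. Upper quartile factors and library totals shifted the median of all features in hydroxyurea by 0.161 and 0.184, so this closeness depends on the scaling. Its log2 fold change was -0.64 ± 0.017 in camptothecin, -0.62 ± 0.017 in hydroxyurea, -0.64 ± 0.017 in MMS and -0.94 ± 0.018 in phleomycin (edgeR adjusted p at most 1.92e-40). 

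The paralogue nop56 had its lowest level in another agent. It had 572 and 578 CPM in camptothecin, 547 and 548 in hydroxyurea, 442 and 461 in MMS and 561 and 565 in phleomycin, against 763 and 783 CPM in untreated cells. Every treated library was below the untreated ones, and MMS, not phleomycin, stood lowest. The log2 fold changes were -0.43 ± 0.019, -0.499 ± 0.019, -0.78 ± 0.019 and -0.46 ± 0.019 for camptothecin, hydroxyurea, MMS and phleomycin, with edgeR adjusted p of 2.54e-29, 7.09e-33, 4.18e-43 and 2.87e-31.

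The gene of fibrillarin itself, fib1, moved by less than nop56 and nop58 in every agent. It had 109.8 and 112.5 CPM in camptothecin, 114.9 and 120.9 in hydroxyurea, 97.9 and 101.4 in MMS and 99.0 and 101 in phleomycin, against 119.7 and 120.3 CPM in untreated cells. The hydroxyurea libraries lay on both sides of the untreated ones, and the other 6 treated libraries lay below them. Fib1 fell by 0.27 ± 0.037 on the log2 scale in MMS (edgeR adjusted p = 1.86e-09) and by 0.26 ± 0.037 in phleomycin (2.5e-09), where the call was lost with upper quartile factors (-0.063, adjusted p = 0.11). In camptothecin it fell by 0.11 ± 0.036 (edgeR adjusted p = 0.00593), a call that was lost without camptothecin replicate 2 (-0.094, adjusted p = 0.0585) and with quantile normalization (-0.062, 0.108). In hydroxyurea its log2 fold change of -0.026 ± 0.036 did not pass (edgeR adjusted p = 0.51), and it turned to 0.14 with upper quartile factors, 0.16 with library totals and 0.10 with quantile normalization, passing the test in each. Snu13, the protein of the particle that first binds the snoRNA and not one of the 10 genes, fell by 0.76 ± 0.018, 0.62 ± 0.018, 1.10 ± 0.018 and 0.88 ± 0.018 on the log2 scale in camptothecin, hydroxyurea, MMS and phleomycin (edgeR adjusted p at most 7.49e-40).

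**Figure D2:**
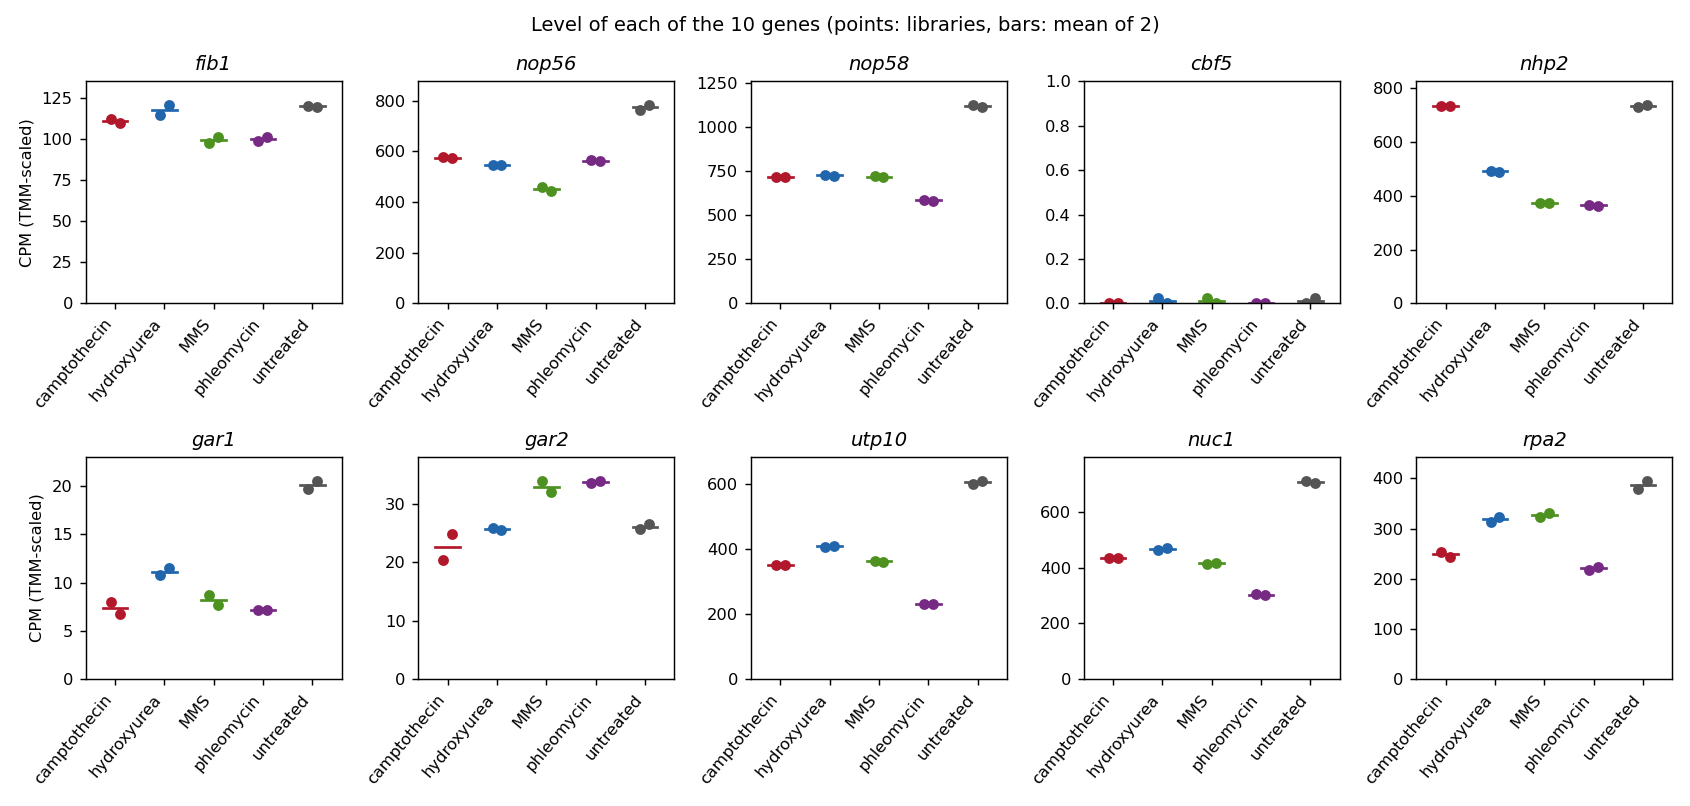
Level of each of the 10 genes in CPM (vertical axes from 0, own scale per gene) by group, with a point per library and a bar at the mean of 2. The untreated points are the highest for nop56, nop58, gar1, utp10, nuc1 and rpa2; nhp2 in camptothecin is level with untreated cells, and cbf5 lies at the bottom of its panel in every library.

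Of the box H/ACA genes, nhp2 separated camptothecin from the other agents. Nhp2, an RNA-binding core protein of the particle, had 733 and 734 CPM in camptothecin, 486 and 492 in hydroxyurea, 372 and 373 in MMS and 361 and 365 in phleomycin, against 727 and 736 CPM in untreated cells. The camptothecin libraries fell between the 2 untreated ones, and the other 6 treated libraries were far below. The log2 fold change in camptothecin was 0.0031 ± 0.018 (edgeR adjusted p = 0.89), which lies at the middle of all features, with 49.9% of them lower. In hydroxyurea it was -0.58 ± 0.019, in MMS -0.97 ± 0.019 and in phleomycin -1.01 ± 0.019 (edgeR adjusted p = 5.15e-37, 4.28e-49 and 5.01e-50). The difference between agents was itself tested: nhp2 was higher in camptothecin than in hydroxyurea (log2 0.58 ± 0.019, edgeR adjusted p = 4.77e-37), 1.97-fold higher than in MMS (0.98 ± 0.019, 4.44e-49) and 2.02-fold higher than in phleomycin (1.01 ± 0.019, 8.14e-50).

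Gar1, a glycine- and arginine-rich protein that binds Cbf5, had 6.79 and 7.96 CPM in camptothecin, 10.8 and 11.5 in hydroxyurea, 7.72 and 8.68 in MMS and 7.17 and 7.19 in phleomycin, against 19.7 and 20.6 CPM in untreated cells. No treated library came near the untreated ones, and hydroxyurea stood highest among the agents. Its log2 fold changes, the largest falls of the 9 tested genes in each of the 4 comparisons of this fit, were -1.44 ± 0.12 in camptothecin, -0.85 ± 0.11 in hydroxyurea, -1.30 ± 0.12 in MMS and -1.49 ± 0.12 in phleomycin (edgeR adjusted p = 2.96e-17, 4.76e-10, 9.66e-16 and 4.29e-18). In camptothecin 0.68% of all tested features had a lower value. The antisense RNA SPNCRNA.1590, which shares 58.6% of gar1's span, had 0.504 to 0.799 CPM as a mean of each agent's libraries and 0.702 CPM in untreated cells, and did not pass the test in any of the 4 comparisons (edgeR adjusted p of 0.326 or more). The part of the overlap in the gar1 result was not tested.

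Cbf5, the pseudouridine synthase itself, had a count of 0 or 1 in every library, 3 counts in all 10 together, and could not be tested. A count of 0 allows up to 3 counts, or 0.0651 to 0.0835 CPM depending on the library, and covers counting error only. The antisense RNA SPNCRNA.1051, which covers the whole gene, was itself counted at a low level that changed: it averaged 0.537 ± 0.15 CPM in camptothecin, 0.945 ± 0.085 in hydroxyurea, 3.42 ± 0.095 in MMS and 3.12 ± 0.39 in phleomycin, and 0.356 ± 0.0090 CPM in untreated cells (SD, n = 2 each). It rose in hydroxyurea (log2 1.40 ± 0.41), MMS (3.25 ± 0.34) and phleomycin (3.12 ± 0.35), with edgeR adjusted p of 0.00161, 5.29e-13 and 2.23e-12. Other protein-coding genes were counted as cbf5 was. Of the 5112 protein-coding features, 194 had 0 or 1 count in every library, and 137 of these were covered over 95% or more of their span. In all, 515 protein-coding genes were covered that far, and most of them had higher counts than this. The low count of cbf5 is therefore given as a count, with no statement on its expression. Nop10, the small core protein of the H/ACA particle and not one of the 10 genes, is covered by no other feature and fell by 1.05 ± 0.033, 0.89 ± 0.032, 1.19 ± 0.033 and 1.53 ± 0.034 on the log2 scale in the 4 agents in the same order (edgeR adjusted p at most 4.27e-34).

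Gar2 and utp10, which act on the ribosomal RNA precursor, went in opposite directions in MMS and phleomycin. Gar2, the fission yeast relative of nucleolin, had 20.4 and 24.8 CPM in camptothecin, 25.5 and 25.8 in hydroxyurea, 32.0 and 33.8 in MMS and 33.6 and 34.0 in phleomycin, against 25.7 and 26.6 CPM in untreated cells. The MMS and phleomycin libraries were all above the untreated ones, and the hydroxyurea libraries overlapped them. Gar2 rose by 0.33 ± 0.074 on the log2 scale in MMS and 0.37 ± 0.074 in phleomycin (edgeR adjusted p = 5.55e-05 and 7.7e-06), and its value in hydroxyurea was -0.027 ± 0.075 (0.742). In camptothecin it fell by 0.22 ± 0.077 (edgeR adjusted p = 0.0101), but the call was lost without camptothecin replicate 1 (-0.075, adjusted p = 0.479) or without untreated replicate 2 (-0.19, adjusted p = 0.0705). SPNCRNA.770 lies antisense over 72.2% of gar2 and had 1.08 ± 0.404 CPM in MMS and 0.671 ± 0.249 in phleomycin, against 0.352 ± 0.234 CPM in untreated cells (SD, n = 2 each). It rose in MMS (log2 1.64 ± 0.49, edgeR adjusted p = 0.00213) and did not pass in phleomycin (0.94 ± 0.53, 0.0942), and its part in the gar2 counts was not tested.

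Utp10, a large protein of the t-UTP group that joins the precursor while it is being made, had 351 and 352 CPM in camptothecin, 408 and 411 in hydroxyurea, 361 and 364 in MMS and 231.6 and 231.7 in phleomycin, against 602 and 612 CPM in untreated cells. Replicates lay closer to each other than any agent lay to untreated cells, and phleomycin was the lowest group. The log2 fold changes were -0.79 ± 0.020 in camptothecin, -0.57 ± 0.020 in hydroxyurea, -0.74 ± 0.020 in MMS and -1.39 ± 0.021 in phleomycin (edgeR adjusted p = 5.4e-42, 1.23e-34, 5.91e-41 and 3.27e-55). In phleomycin utp10 was thus 2.62-fold lower than in untreated cells, and 1.64% of all features had a lower value.

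Both RNA polymerase I genes fell in all 4 agents. Nuc1, the largest subunit, had 433 and 435 CPM in camptothecin, 463 and 469.7 in hydroxyurea, 414 and 417 in MMS and 301 and 306 in phleomycin, against 703 and 712 CPM in untreated cells. The groups did not overlap in any comparison, and phleomycin was again lowest. Its log2 fold changes were -0.71 ± 0.020, -0.60 ± 0.019, -0.77 ± 0.020 and -1.22 ± 0.020 in camptothecin, hydroxyurea, MMS and phleomycin (edgeR adjusted p = 2.01e-40, 6.29e-37, 1.17e-42 and 2e-53). Rpa2, the second-largest subunit, which forms the active centre together with the product of nuc1, had 244 and 253 CPM in camptothecin, 313 and 324 in hydroxyurea, 324 and 332 in MMS and 219 and 224 in phleomycin, against 379 and 396 CPM in untreated cells. For rpa2, camptothecin and phleomycin lay well below hydroxyurea and MMS. The log2 fold changes were -0.64 ± 0.025, -0.28 ± 0.024, -0.24 ± 0.024 and -0.81 ± 0.025 in camptothecin, hydroxyurea, MMS and phleomycin (edgeR adjusted p = 6.9e-33, 1.56e-16, 6.52e-14 and 1.52e-38).

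The other tested subunits of RNA polymerase I, most of them shared with RNA polymerase II or III, mostly fell with nuc1 and rpa2. Of 10 tested, 10 fell in camptothecin, 8 in hydroxyurea, 10 in MMS and 9 in phleomycin, and 0, 1, 0 and 1 rose, where 35.9, 38.8, 40.9 and 40.7% of all tested features fell and 35.2, 40.3, 39.5 and 42.2% rose. The 1 that rose was rpc40 in hydroxyurea (log2 0.14 ± 0.024) and rpb10 in phleomycin (0.16 ± 0.030). Other features cover 86.4% of the span of rpa43 and 52.7% of that of rpb8. In hydroxyurea the count of 8 became 4 with upper quartile factors and 4 with library totals. Ker1, a subunit found only in RNA polymerase I, fell by 0.43 ± 0.029, 0.66 ± 0.030, 0.75 ± 0.030 and 1.18 ± 0.031 on the log2 scale in camptothecin, hydroxyurea, MMS and phleomycin (edgeR adjusted p at most 2.11e-20). Rpb6, which all 3 polymerases share, fell by 0.39 ± 0.029, 0.40 ± 0.029, 0.81 ± 0.030 and 0.46 ± 0.029 (edgeR adjusted p at most 1.77e-18). Of 7 tested genes for RNA polymerase I initiation and rDNA-binding factors, 6, 5, 5 and 5 fell and 0, 2, 1 and 2 rose in the same order of agents, beside the same shares of all features. Hmo1, an HMG-box protein that binds rDNA in budding yeast, fell by 0.43 ± 0.033, 0.56 ± 0.033, 0.94 ± 0.034 and 1.31 ± 0.035 on the log2 scale (edgeR adjusted p at most 3.14e-18). Spp27, a component of the upstream activating factor, fell by 0.18 ± 0.0399, 0.57 ± 0.041, 0.97 ± 0.042 and 1.57 ± 0.044 (edgeR adjusted p at most 8e-05), and 37.2% of its span is covered by other features.

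The order of the agents differed from gene to gene. Phleomycin was the lowest group for nop58, nhp2, gar1, utp10, nuc1 and rpa2, MMS was lowest for fib1 and nop56, and camptothecin was lowest for gar2. Neighbours in this order were often close: fib1 in MMS and phleomycin (log2 difference -0.0053 ± 0.037, edgeR adjusted p = 0.908), gar1 in camptothecin and phleomycin (0.045 ± 0.13, 0.751), nhp2 in MMS and phleomycin (0.036 ± 0.0197, 0.0944) and gar2 in MMS and phleomycin (-0.038 ± 0.072, 0.654) did not pass the test. These orders are at the TMM scaling. Rpa2 differed by 0.17 ± 0.025 on the log2 scale between camptothecin and phleomycin. Upper quartile factors shifted the median of all features by 0.0193 in camptothecin and 0.2 in phleomycin, so the lowest group for rpa2 may depend on the scaling. Hydroxyurea and phleomycin differed for most of the genes, with 7 of the 9 higher and 1 lower in hydroxyurea, where 37.8 and 33.3% of all features were. Utp10 was 1.77-fold higher in hydroxyurea than in phleomycin (log2 0.82 ± 0.021, edgeR adjusted p = 6.87e-42), nuc1 1.54-fold higher (0.62 ± 0.020, 1.61e-36) and rpa2 1.44-fold higher (0.53 ± 0.025, 3.5e-28). The 1 gene lower in hydroxyurea was gar2 (-0.397 ± 0.073, edgeR adjusted p = 2.76e-06). That count was 2 in 8 of 19 alternatives, among them leaving out camptothecin replicate 1 or MMS replicate 2, and nop56 stood just outside the threshold (-0.041 ± 0.019, adjusted p = 0.0529).

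Camptothecin against phleomycin gave 6 genes higher and 1 lower, where 40.7 and 39.4% of all features were. The 6 became as few as 4 over the 19 alternatives, and the 1 became 2 with upper quartile factors and with library totals. Camptothecin against hydroxyurea gave 2 higher and 6 lower, where 36.2 and 36.5% were, and the 2 became 1 in 4 of 19 alternatives. Rpa2 was lower in camptothecin than in hydroxyurea (log2 -0.36 ± 0.025, edgeR adjusted p = 2.82e-20) and than in MMS (-0.399 ± 0.025, 1.43e-22). In camptothecin against MMS 4 genes were higher and 3 lower, where 38.7 and 38.2% of all features were; the 4 became 2 with library totals. Hydroxyurea against MMS gave 6 genes higher and 1 lower (2 lower in 4 of 19 alternatives, one of them without hydroxyurea replicate 2), where 39.4 and 34.2% of all features were, nop56 among the higher ones (0.28 ± 0.0197, edgeR adjusted p = 9.04e-20). MMS against phleomycin gave 4 genes higher and 1 lower, where 35.8 and 36.2% of all features were. With upper quartile factors or quantile normalization 8 genes passed in all, and the 1 lower became 4 and 3 in that order. At the TMM scaling the 1 gene lower in MMS than in phleomycin was nop56 (-0.32 ± 0.0197, edgeR adjusted p = 1.55e-22), while its partner nop58 was higher (0.298 ± 0.018, 2.51e-23).

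Nop56 and nop58, whose products meet in 1 particle, therefore changed their ratio. The ratios of these and other pairs of genes were followed within each library, free of any scaling between libraries. The log2 ratio of nop56 to nop58 counts was -0.33 and -0.31 in camptothecin, -0.41 and -0.41 in hydroxyurea, -0.698 and -0.64 in MMS and -0.058 and -0.053 in phleomycin, against -0.56 and -0.51 in untreated cells. No 2 groups overlapped, with MMS below and the other agents above untreated cells. On average the ratio differed from untreated cells by 0.22 in camptothecin, 0.13 in hydroxyurea, -0.14 in MMS and 0.48 in phleomycin.

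The ratio of fib1 to nop58 was higher in all 4 agents, by 0.53 in camptothecin, 0.598 in hydroxyurea, 0.37 in MMS and 0.67 in phleomycin, and all 8 treated libraries were above the untreated ones. The ratio of nuc1 to rpa2 was 0.77 and 0.83 in camptothecin, 0.54 and 0.56 in hydroxyurea, 0.33 and 0.35 in MMS and 0.43 and 0.49 in phleomycin, against 0.83 and 0.91 in untreated cells. Camptothecin overlapped untreated cells and the other 3 agents lay below, by 0.32, 0.53 and 0.41 in hydroxyurea, MMS and phleomycin. The ratio of gar2 to fib1 was higher by 0.60 in MMS and 0.63 in phleomycin, and differed by -0.10 in camptothecin and -0.00029 in hydroxyurea. The ratio of gar1 to nhp2, a pair chosen after its values were seen, differed by -1.45 in camptothecin, -0.27 in hydroxyurea, -0.32 in MMS and -0.47 in phleomycin. These ratios are descriptions: an exact two-sided permutation test of 1 agent against untreated cells, 2 libraries against 2, cannot go below p = 0.333.

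**Figure D3:**
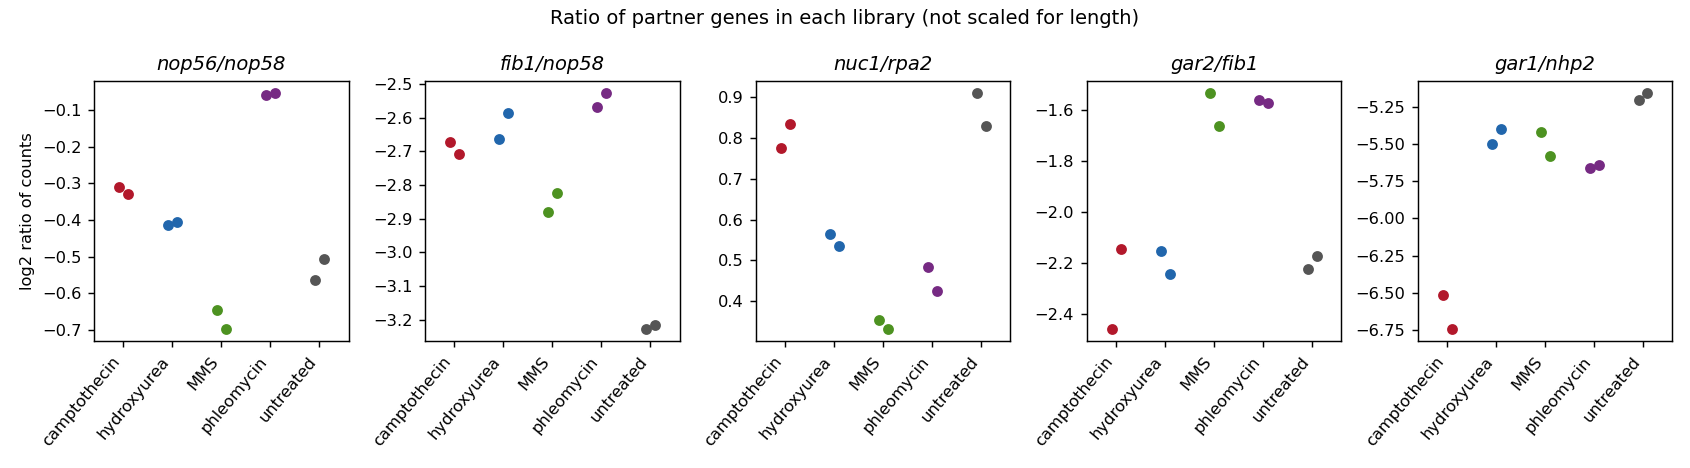
Log2 ratio of the counts of each pair of genes in each library, by group with a point per library. Vertical axes have their own scale per pair, and counts are not divided by gene length. For nop56/nop58 the phleomycin points (-0.058 and -0.053) are highest and the MMS points (-0.698 and -0.64) lowest; for gar1/nhp2 camptothecin stands apart at the bottom.

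Beyond the snoRNPs and RNA polymerase I, the same tests were read over the rest of the ribosome-making genes. Of 45 tested genes of the small subunit processome other than utp10, 29 fell and 7 rose in camptothecin, 19 and 15 in hydroxyurea, 26 and 13 in MMS, and 31 and 12 in phleomycin. Of all tested features, 35.9% fell and 35.2% rose in camptothecin, 38.8 and 40.3% in hydroxyurea, 40.9 and 39.5% in MMS and 40.7 and 42.2% in phleomycin, and the processome counts in hydroxyurea lay near those shares. Their median log2 fold change was -0.16, -0.032, -0.19 and -0.37 in that order, so that utp10 lay below the list's median in each agent. The processome genes rrp5 (-0.65 ± 0.020 in camptothecin, -0.85 ± 0.020 in phleomycin) and nan1 (-0.38 ± 0.023 and -0.93 ± 0.024) were among those that fell (edgeR adjusted p at most 1.16e-22). Of 41 tested genes of large subunit assembly, 25 fell and 7 rose in camptothecin, 19 and 15 in hydroxyurea, 22 and 12 in MMS, and 26 and 10 in phleomycin. Those in hydroxyurea again lay near the shares of all features. The hydroxyurea counts moved with the scaling: with library totals 25 processome genes and 23 large subunit genes rose, and 11 large subunit genes fell. Mrt4, an assembly factor of the large subunit related to the ribosomal protein P0, fell by 0.63 ± 0.026, 0.56 ± 0.025, 0.71 ± 0.026 and 1.32 ± 0.027 on the log2 scale in camptothecin, hydroxyurea, MMS and phleomycin (edgeR adjusted p at most 5.28e-29).

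The genes of the cytosolic ribosomal proteins were ordered differently from the 10 genes over the agents. Of 117 tested, 57 fell and 45 rose in camptothecin, 95 and 14 in hydroxyurea, 110 and 3 in MMS, and 83 and 24 in phleomycin; the rises became 36 in hydroxyurea with quantile normalization and 41 in phleomycin with upper quartile factors. Their median log2 fold change was -0.046 in camptothecin, -0.45 in hydroxyurea, -0.71 in MMS and -0.32 in phleomycin. The 9 genes described here had their lowest median in phleomycin (-0.94), and in camptothecin stood at -0.64 with nhp2 alone not passing. Many ribosomal protein genes come in near-identical pairs whose reads may be split between copies, so their counts are less certain. SnoRNAs and ribosomal RNA were not analysed here.

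**Figure D4:**
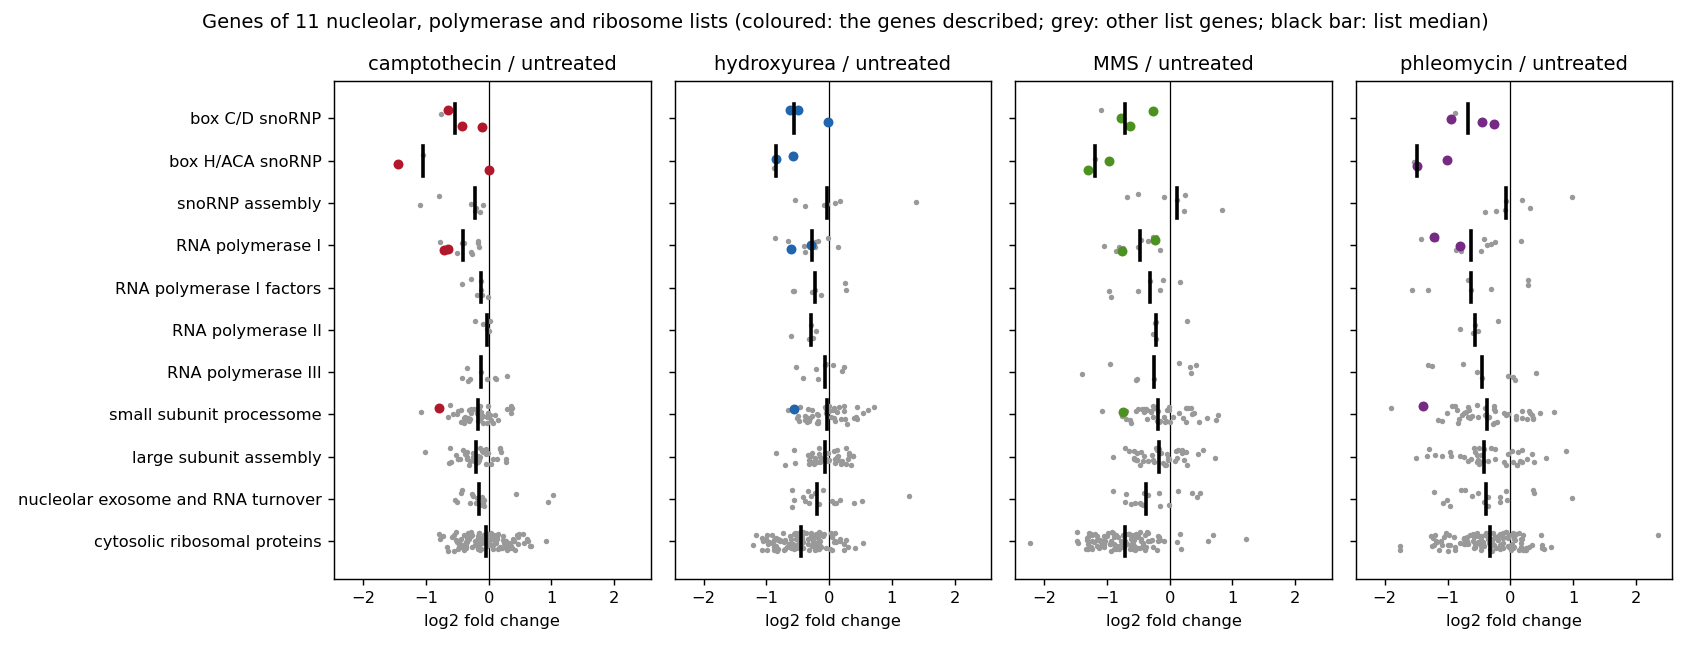
Log2 fold change over untreated cells (horizontal axes) of every tested gene in 11 lists (rows), per agent; coloured points are genes described here, grey points the other genes of a list, and black bars the list medians with the described genes included. Gar2, which rose in MMS and phleomycin, is in none of these lists and has no point. In MMS the bar for ribosomal proteins (-0.71) lies as far left as that of box C/D genes (-0.71), and in camptothecin it lies near 0.

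Among all other named protein-coding genes, 6 had profiles over the 10 libraries closest to the mean profile of the 9 tested genes, by root mean square distance of log2 CPM after centring each gene on its own mean. The closest was ubp12, a ubiquitin-specific protease, at 0.028, with log2 fold changes of -0.56, -0.49, -0.58 and -0.85 in camptothecin, hydroxyurea, MMS and phleomycin. Other features cover 31.9% of the span of ubp12. Pcy1 (0.045), elp4 of the Elongator complex (0.050), par2, a regulatory subunit of phosphatase 2A (0.058), ade4 of purine synthesis (0.059) and ccr1, a cytochrome P450 reductase (0.059), came next. Of the genes described here nop58 lay nearest the mean profile, at 0.064, and gar2 furthest, at 0.43. Such distances compare shapes over libraries that share groups, and they carry no test.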

How the data were processed

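The authors deposited 1 table of raw counts per gene, which names no genome build or annotation; per the submitters' processing notes it was made with HISAT2 and StringTie, with versions and settings not given in the sources used here. Illumina libraries were made from TRIzol-extracted total RNA, per the labels' protocols. Values are whole numbers, with totals of 37301356 to 48598533 counts per library; without molecular identifiers reads may repeat a molecule, so floors cover counting error only.

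Counts were fitted with edgeR 4.0.16 in R 4.3.3 by quasi-likelihood in 1 model of 5 groups, with TMM factors (0.944 to 1.09), after filterByExpr, which kept 5734 features; 5 residual degrees of freedom remained. Tests are two-sided. Standard errors are the absolute log2 fold change over the square root of F. Replicates of a group differed by more than sampling noise (chi-square per feature 3.34 to 3.71).

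Symbols and overlaps between features came from assembly ASM294v3 of RefSeq, matched on 6540 locus tags and 11 synonyms, with 110 IDs unmatched. The authors do not name it, so it was used only for names and for which features overlap, and over what share of a gene's span in that assembly; no coordinates are printed, no level was divided by length, and promoter and protein sequences were not used here.

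Genes named are the 10 described, for each list the 4 genes or fewer that had the smallest adjusted p in a comparison, and the 6 of nearest profile. The lists are box C/D and H/ACA snoRNPs, snoRNP assembly, RNA polymerases I, II and III, RNA polymerase I factors, small subunit processome, large subunit assembly, nucleolar exosome and RNA turnover, cytosolic ribosomal proteins, and rDNA silencing with nucleolar structure. The 10 genes and the lists were chosen with earlier results of these data known. Alternatives were RLE, upper quartile and total-count scaling, quantile normalization (limma 3.58.1), DESeq2 1.42.0, no filter, a filter of 10 CPM in 2 libraries, only the 2 groups compared, a replicate block and leaving out each library.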

Additional observations from a re-analysis of the deposited data

How the results depend on the processing

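Over 19 alternatives the number of described genes past the threshold against untreated cells kept within 1.5 times of the value given for every agent; between MMS and phleomycin it was 8 with upper quartile factors and 8 with quantile normalization, against 5. Signs turned for 3 values that had not passed. Nhp2 in camptothecin was -0.0067 with library totals and -0.00012 in DESeq2, -0.0060 to 0.012 when leaving out each library in turn and 0.034 (adjusted p = 0.0468) with quantile normalization. Fib1 in hydroxyurea was 0.14 with upper quartile factors, 0.16 with library totals, 0.10 with quantile normalization (all passing), 0.038 with the filter of 10 CPM and -0.063 to 0.0099 when leaving out each library in turn. Gar2 in hydroxyurea was 0.13, 0.16 and 0.037 with upper quartile factors, library totals and that filter, and passed at -0.27 with quantile normalization. Some passing values were lost: fib1 in camptothecin with quantile normalization (-0.062) and fib1 in phleomycin with upper quartile factors (-0.063). Upper quartile factors and library totals raised the median of all features in hydroxyurea by 0.161 and 0.184, and upper quartile factors by 0.2 in phleomycin; the share of calls that were rises, 50.9% in both agents, became 65.6 and 67.7% in hydroxyurea and 63.5% in phleomycin, while the median of the 9 genes was -0.41, -0.38 and -0.74. With quantile normalization the median of the 9 genes in hydroxyurea was -0.33. The cause of these changes was not tested beyond the scaling itself. Counts of 4 or more that moved over 1.5 times were, in hydroxyurea, falls of RNA polymerase I (8, lowest 4), its factors (5, lowest 3), large subunit assembly (19, lowest 11) and exosome genes (10, lowest 6), and rises of processome (15, highest 25), large subunit (15, highest 23), exosome (4, highest 8), ribosomal protein (14, highest 36) and rDNA silencing genes (4, lowest 2); in phleomycin, rises of ribosomal protein genes (24, highest 41) and falls of rDNA silencing genes (5, lowest 2); and rises of described genes in camptothecin against MMS (4, lowest 2). Smaller counts moved by 1 to 4 genes. Replicate numbers did not pair the libraries (correlations of deviations -0.0527 to 0.037); with a replicate block the counts of described genes called stayed at 8, 7, 9 and 9 in camptothecin, hydroxyurea, MMS and phleomycin. Promoter motifs, protein features and levels per length were planned and not run. Of the 10 genes, cbf5 alone had too few counts for a test.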

Other observations

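Genes around ribosomal RNA synthesis did not all follow the snoRNP genes. Of 18 tested genes of the nucleolar exosome and RNA turnover, 13 fell and 3 rose in camptothecin, 10 and 4 in hydroxyurea, 12 and 3 in MMS, and 13 and 3 in phleomycin. Beside these and the counts of the next paragraph stand the shares of all tested features, of which 35.9% fell and 35.2% rose in camptothecin, 38.8 and 40.3% in hydroxyurea, 40.9 and 39.5% in MMS and 40.7 and 42.2% in phleomycin. Mtr4, the helicase that feeds RNA to the nuclear exosome, fell by 0.53 ± 0.025, 0.60 ± 0.025, 0.90 ± 0.026 and 1.21 ± 0.026 on the log2 scale in camptothecin, hydroxyurea, MMS and phleomycin (edgeR adjusted p at most 3.38e-28). Mtr3, a subunit of the exosome ring, had 208.5 ± 2.66 CPM in camptothecin and 155.6 ± 2.11 in hydroxyurea, against 108.1 ± 5.83 CPM in untreated cells (SD, n = 2 each). It rose in all 4 agents (log2 0.95 ± 0.032 in camptothecin, 0.53 ± 0.033 in hydroxyurea, 0.48 ± 0.033 in MMS and 0.36 ± 0.033 in phleomycin; edgeR adjusted p at most 1.68e-15). Las1, a nuclease that cuts the precursor within an internal spacer, also rose in all 4 (1.03 ± 0.054, 1.28 ± 0.053, 0.43 ± 0.056 and 0.985 ± 0.054 in the same order; edgeR adjusted p at most 5.96e-10). The exosome nuclease rrp6 rose in camptothecin (0.43 ± 0.026), hydroxyurea (0.39 ± 0.026) and phleomycin (0.38 ± 0.026) and fell in MMS (-0.16 ± 0.027, edgeR adjusted p = 2.26e-07), a fall that did not pass with quantile normalization (-0.065, adjusted p = 0.0557). The values of mtr3, las1 and rrp6 in MMS and phleomycin, and that of rrp6 in hydroxyurea, fall outside the naming rule and were chosen after their values were seen.

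Of 7 tested snoRNP assembly factors, 5 fell and 0 rose in camptothecin, 3 and 1 in hydroxyurea, 3 and 3 in MMS, and 3 and 2 in phleomycin, and the AAA+ ATPase rvb2 fell in all 4 (log2 -0.28 ± 0.021, -0.54 ± 0.021, -0.51 ± 0.021 and -0.398 ± 0.021; edgeR adjusted p at most 6.02e-19). With upper quartile factors 4 of these factors rose in hydroxyurea, and 4 rose and 1 fell in phleomycin. With library totals 5 rose in hydroxyurea. Of 5 tested RNA polymerase II genes 2, 5, 4 and 5 fell and 0, 0, 1 and 0 rose in camptothecin, hydroxyurea, MMS and phleomycin. Of 9 tested RNA polymerase III genes 5, 3, 5 and 5 fell and 3, 2, 3 and 2 rose, with rpc25 lower by 0.34 ± 0.042, 0.53 ± 0.042, 0.95 ± 0.043 and 1.25 ± 0.044 than in untreated cells on the log2 scale. Of 8 tested genes of rDNA silencing and nucleolar structure other than gar2, 3, 2, 5 and 5 fell and 1, 4, 0 and 1 rose. With gar2 the rises were 1 in MMS and 2 in phleomycin. Hmo1 and reb1 of this list were also counted among the RNA polymerase I factors, and both fell in all 4 agents. The 1 rise in camptothecin is nuc2 (log2 0.10, edgeR adjusted p = 0.0144), known as a subunit of the anaphase-promoting complex, and the count was 0 without untreated replicate 1, camptothecin replicate 1 or camptothecin replicate 2. In the lists of snoRNPs, snoRNP assembly, RNA polymerase I and its factors, 6 genes had too few counts to be tested. They were cbf5, shq1, rpa34, rpa49, rrn5 and rrn7, and all 6 are covered over 98.6% or more of their span by other features. The snoRNP assembly gene bcd1 is covered over 100% of its span and was tested.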
